A study of Mus musculus with 20 samples.

Results

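The comparison is that of mice lacking Xiap with wild-type mice after 4 weeks of co-housing, measured as RNA in small intestinal crypts. Crypts are the epithelial pits of the intestine, which hold stem cells, dividing cells, Paneth cells and the first goblet, enteroendocrine and absorptive cells. It took in 10 of the 20 libraries of the series, 5 from co-housed Xiap-/- mice and 5 from co-housed wild-type mice, picked by their column names, and the genes whose mean over the 20 libraries reached log2 of 10 (3.32). That left 9521 of 23020 genes. All mice were of the C57BL/6 strain, and each library is given as 1 mouse of its group. The other 10 libraries came from 6 wild-type and 4 Xiap-/- mice housed by genotype, called housed apart here. They entered the mean that decides which genes were tested and the model that estimates the spread. They also served to test where the co-housed difference departs from theirs. For some genes their own difference is given, and some were named because they passed housed apart. The labels name no age, no cage and no deleted stretch of Xiap, so whether the co-housed mice shared 1 cage or several is not given in the sources used here, and the p-values rest on mice taken as independent.

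Xiap encodes an inhibitor of apoptosis that binds caspases and that also carries the signal of the bacterial sensor NOD2 and of receptors of the TNF family to NF-kB. In mice and humans its loss makes intestinal and immune cells prone to death through the kinase RIPK3 and through caspases. Co-housed mice eat each other's faeces and so exchange gut bacteria, which makes the comparison one of genotype with the microbes mixed between the genotypes. Crypt cells answer bacteria and cytokines with the lectins Reg3b and Reg3g, small secreted proteins that act on bacteria, largely through the transcription factor STAT3.

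The results turned on a pair of inducible heat shock genes and a pair of lectin genes, and their promoters are shown to let the pairs be compared. Each stretch is the 250 bases before the RefSeq start of the gene on build GRCm38.p6, written 5′ to 3′ on the strand of the gene. Capitals mark a match to GAANNTTC, the paired repeat bound by heat shock factor, in Hspa1b and Hspa1a, and to TTCNNNGAA, the site bound by STAT factors, in Reg3b. Reg3g held no match to TTCNNNGAA. The stretches are chr17:34959239-34959488 (minus strand) for Hspa1b, chr17:34972157-34972406 (minus strand) for Hspa1a, chr6:78370635-78370884 (plus strand) for Reg3b and chr6:78468875-78469124 (minus strand) for Reg3g.
Hspa1b: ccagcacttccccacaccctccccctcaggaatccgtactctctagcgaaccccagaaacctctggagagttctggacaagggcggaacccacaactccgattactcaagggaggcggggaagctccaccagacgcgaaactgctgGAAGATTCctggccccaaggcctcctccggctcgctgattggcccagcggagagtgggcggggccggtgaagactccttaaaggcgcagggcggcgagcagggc
Hspa1a: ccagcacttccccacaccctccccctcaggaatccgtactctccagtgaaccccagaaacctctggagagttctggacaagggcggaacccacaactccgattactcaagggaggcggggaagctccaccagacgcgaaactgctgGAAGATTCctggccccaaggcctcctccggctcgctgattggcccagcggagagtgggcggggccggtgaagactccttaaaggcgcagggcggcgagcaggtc
Reg3b: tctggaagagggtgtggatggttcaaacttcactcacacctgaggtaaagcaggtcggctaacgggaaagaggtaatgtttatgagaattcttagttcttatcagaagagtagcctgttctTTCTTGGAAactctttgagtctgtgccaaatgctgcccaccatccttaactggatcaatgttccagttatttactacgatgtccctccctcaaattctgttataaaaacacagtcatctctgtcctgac
Reg3g: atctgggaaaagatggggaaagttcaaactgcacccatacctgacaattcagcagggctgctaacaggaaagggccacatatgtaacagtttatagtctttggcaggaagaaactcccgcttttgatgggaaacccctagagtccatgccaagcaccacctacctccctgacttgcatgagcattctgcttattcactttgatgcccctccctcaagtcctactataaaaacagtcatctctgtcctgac
Both motifs read the same on either strand, so a search of 1 strand covers both. The heat shock stretches were identical at 247 of 250 bases (98.8%), and the match ended 96 bases before the start in both. Of 32851 RefSeq promoters of this length, 6.69% held GAANNTTC and 7.02% held TTCNNNGAA. A match is a description of the letters and not a measured binding site.

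The epithelial origin of the samples was checked against marker genes, since the text on RNA extraction names liver while the other labels give crypts. All 10 epithelial markers were tested, and the mean of the list ran from 9.64 to 9.78 in co-housed wild-type and from 9.73 to 9.80 in co-housed Xiap-/- mice (log2 scale, as for all levels here). The highest mean among hepatocyte markers was 4.11 (Ttr), among stromal, endothelial and muscle markers 4.08 (Vim), and among glial and neuronal markers 0.61 (Snap25). Immune lists reached higher, to 9.16 (Gzma) for T cell and NK cell, 8.89 (Cd74) for B and plasma cell and 8.38 (Cst3) for myeloid and mast cell markers. The check thus does not show an absence of immune cells. No count of reads is in the values, so the depth of the libraries is unknown. A proxy, the share of rare genes that stood above their own plateau, was 8.74% ± 1.47 (SD, n = 5) in wild-type and 8.77% ± 2.77 (SD, n = 5) in Xiap-/- mice (exact permutation p = 0.992, two-sided).

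The Xiap transcript (chromosome X, 42059613 to 42109664, RefSeq on GRCm38.p6) was at 6.76, 6.84, 6.80, 6.60 and 6.36 in the wild-type mice and at 6.91, 6.68, 6.66, 6.56 and 6.29 in the Xiap-/- mice. The 2 groups covered the same range, and the highest and the lowest value both came from Xiap-/- mice. The difference was -0.05 on the log2 scale (exact permutation p = 0.683, two-sided). Libraries made from the 3′ end of transcripts can read RNA that lies outside a deleted stretch, so this value does not check the genotype labels. It lay between -0.13 and 0.03 with 1 library left out in turn, and the sign turned without Xiap-/- replicate 5. The 13 tested genes within 5 Mb of Xiap had a median difference of 0.07. In limma 0 passed, and 3 had an unadjusted p under 0.05, beside 12% of all genes. The smallest p-values were those of the ribosomal gene Rpl39 (0.37 ± 0.12, limma adjusted p = 0.218) and Nkap, an NF-kB-associated nuclear protein (-0.24 ± 0.08, adjusted p = 0.229).

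Across all genes, 3 passed between the co-housed genotypes. These were the chaperone gene Hspa1b and the nuclear factor gene Banp, which rose in Xiap-/- mice, and the kinase scaffold gene Fry, which fell. This was 0.0315% of the 9521 tested genes (0.021% higher, 0.0105% lower) at a Benjamini-Hochberg adjusted p under 0.05 (limma, 1 model of 4 group means over 20 libraries). An unadjusted p under 0.05 was reached by 1144 genes (12% of those tested), 517 higher and 627 lower. In 294 genes (3.09%) the co-housed groups did not overlap, 127 of them higher (1.33%) and 167 lower (1.75%) in Xiap-/- mice. With the libraries centred on their medians the split was 144 higher and 143 lower.

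The count depended on which mice set the spread. A fit to the 10 co-housed libraries alone passed 142 genes (1.49%), 66 higher (0.693%) and 76 lower (0.798%). They included all 3 genes named above. This alternative is given below for many, but not all, of the genes whose call it changes. Its differences ran from 0.27 to 1.23 among those higher and from -0.28 to -0.75 among those lower. In 90 of the 142 genes the groups did not overlap. The median SD between mice was 0.129 in co-housed wild-type, 0.125 in co-housed Xiap-/- and 0.124 in Xiap-/- mice housed apart, and 0.171 in wild-type mice housed apart. With 1 of the 10 libraries left out in turn, the count ran from 30 (without Xiap-/- replicate 4) to 381 (without Xiap-/- replicate 2). It was 306, 92, 53, 45 and 37 without wild-type replicate 1, wild-type replicate 5, wild-type replicate 4, Xiap-/- replicate 5 and wild-type replicate 3.

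**Figure D1:**
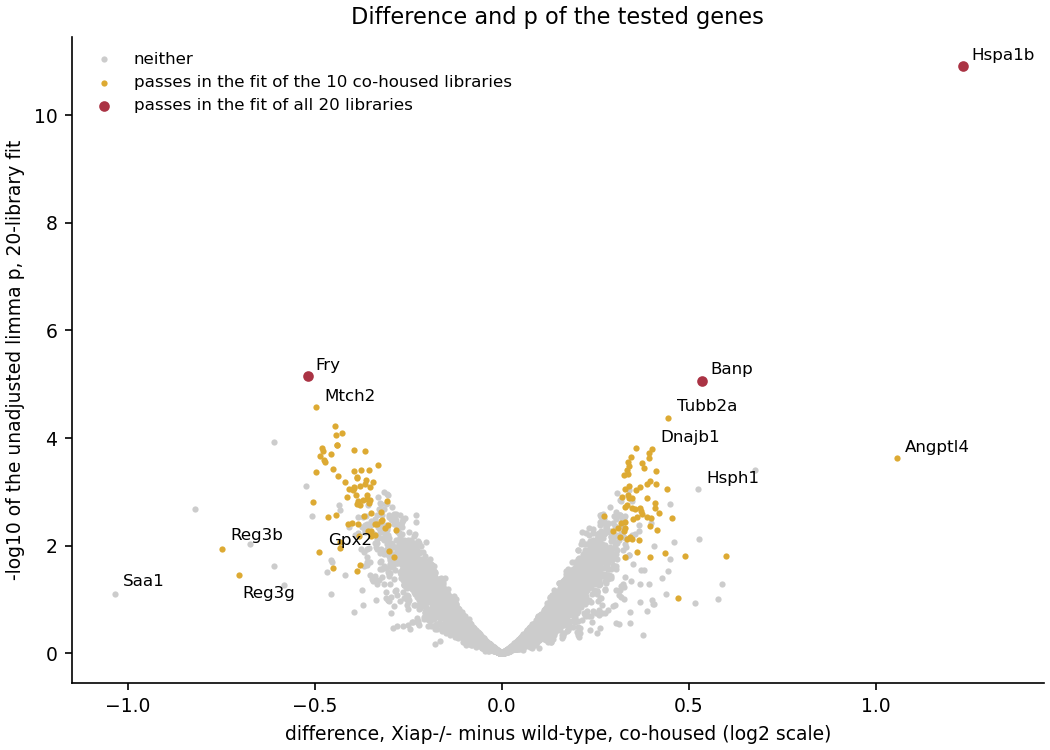
Each point is 1 of the 9521 tested genes, placed by its difference between co-housed Xiap-/- and wild-type mice (x axis, log2 scale) and by -log10 of its unadjusted limma p in the 20-library fit (y axis). Red points passed in that fit, yellow points only in the fit of the 10 co-housed libraries; Hspa1b stands alone at 1.23, while Reg3b and Reg3g differ by -0.75 and -0.70 with modest p.

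The inducible chaperone gene Hspa1b was higher in co-housed Xiap-/- mice. Hspa1b (chromosome 17, 34956429 to 34959238) encodes an inducible member of the HSP70 family, which refolds damaged proteins. It was at 3.18, 3.21, 3.10, 3.27 and 3.19 in the wild-type mice and at 4.47, 4.30, 4.35, 4.00 and 5.00 in the Xiap-/- mice. The lowest Xiap-/- mouse thus stood clear of the highest wild-type mouse, and the wild-type values were tightly packed. Hspa1b rose by 1.23 ± 0.12 (SE, limma adjusted p = 1.18e-07), and it passed in all 20 fits with 1 library left out. The mean of the other 15 libraries was 3.27, below the minimum of 3.32, so Hspa1b was tested only because of its level in the co-housed Xiap-/- mice.

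Hspa1a, the neighbouring gene (chromosome 17, 34969359 to 34972156), encodes nearly the same protein. Its mean was below the minimum for the limma fit, and it was compared alone. It was at 2.88, 2.84, 3.00, 2.98 and 3.03 in the wild-type mice and at 3.89, 3.76, 4.45, 3.39 and 4.52 in the Xiap-/- mice. Again the groups did not overlap, with Xiap-/- replicate 5 highest and replicate 4 lowest for both genes. The difference was 1.05 (exact permutation p = 0.00794, two-sided, the smallest that 5 mice against 5 allow). Any gene whose groups do not overlap gets this p, and 3.09% of the tested genes had such groups. Hspa1a was also chosen with earlier results of these data known, so its p describes the separation only. The 2 genes are near-identical copies, and reads may have been divided between them in a way the sources used here do not give, so they are not independent measurements.

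Of 50 heat shock chaperone genes listed, 39 were tested, and Hspa1b was the 1 that passed. The counts of the list include Hspa1b, which was tested only because of its level in the co-housed Xiap-/- mice. The list had a median difference of 0.07, beside 0.004 over all tested genes, with 27 members higher and 12 lower. An unadjusted p under 0.05 was reached by 9 members, all higher, beside 5.43% of all genes in that direction. Besides Hspa1b, the groups did not overlap in Dnajb1, Cacybp and Dnaja1, all higher, beside 1.33% of all genes. Dnajb1, the HSP40 partner that feeds clients to HSP70, was at 5.64, 5.69, 5.50, 5.85 and 5.55 in wild-type and at 5.89, 6.16, 6.13, 5.93 and 6.11 in Xiap-/- mice. The gap between the groups was narrow, and the difference of 0.40 ± 0.09 did not pass (limma adjusted p = 0.097; 0.0177 in the fit of the co-housed libraries).

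Further members named after their values were seen were Hsph1, Bag3, Cacybp and Dnaja1. Hsph1, a large exchange factor of HSP70, differed by 0.52 ± 0.14 (limma adjusted p = 0.137), and its groups overlapped through wild-type replicate 5 at 7.42 and Xiap-/- replicate 4 at 7.28. Bag3, a co-chaperone that hands HSP70 clients to autophagy, differed by 0.36 ± 0.10 (adjusted p = 0.137, and 0.0432 in the fit of the co-housed libraries). Cacybp, an HSP90-binding adaptor, differed by 0.34 ± 0.10 (adjusted p = 0.163, and 0.0254 in the fit of the co-housed libraries). The HSP40 gene Dnaja1 differed by 0.26 ± 0.09 (adjusted p = 0.222). The constitutive chaperone Hsp90ab1 lay at 11.23 and 11.28 on average (difference 0.04 ± 0.12, adjusted p = 0.905). No GAANNTTC was found in the promoter stretches of Dnajb1, Hsph1 and Bag3, which says only that these letters are not in those windows.

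**Figure D2:**
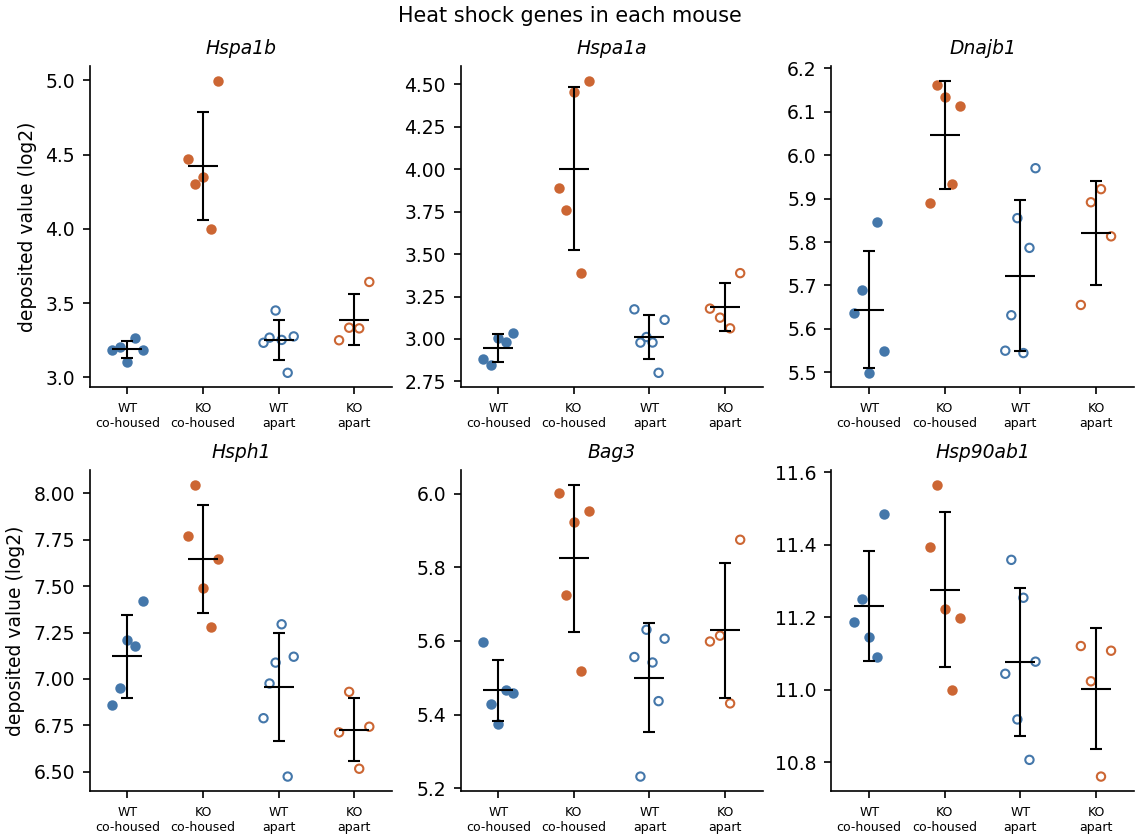
Deposited log2 values (y axis, each panel with its own range) of 6 heat shock genes in each mouse, by genotype (blue wild-type, WT; orange Xiap-/-, KO) and housing (filled points co-housed, open points apart); black bars are the mean ± SD. No mouse outside the co-housed Xiap-/- group reaches 4.00 for Hspa1b or Hspa1a, and some mice of that group also lie below it for Hspa1a. Hsp90ab1 covers much the same range in both co-housed genotypes.

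The Hspa1b difference was also the 1 that departed between the housings. Housed apart, the genotypes differed by 0.14 (limma adjusted p = 0.606). The difference between the differences, the interaction of genotype and housing, was 1.10 ± 0.17 (adjusted p = 0.00254), and Hspa1b was the only gene of 9521 to pass that test (0.0105%). It entered the test only through its level in the co-housed Xiap-/- mice, without which its mean lay below the minimum. At an unadjusted p under 0.05 there were 671 such genes.

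Banp and Fry completed the calls. Banp (chromosome 8, 121947972 to 122029260), a nuclear protein that binds unmethylated CpG-rich promoters, was at 4.31, 4.47, 4.62, 4.76 and 4.70 in wild-type and at 5.23, 5.26, 5.06, 5.04 and 4.94 in Xiap-/- mice. The lowest Xiap-/- mouse exceeded the highest wild-type mouse. Banp rose by 0.54 ± 0.10 (limma adjusted p = 0.0271). Fry (chromosome 5, 150118618 to 150497753), a scaffold of NDR kinases, was at 3.87, 3.88, 3.98, 3.88 and 3.89 in wild-type and at 3.41, 3.40, 3.51, 3.22 and 3.35 in Xiap-/- mice. Those groups stood apart as well, and Fry fell by 0.52 (SE 0.10 on the log2 scale; limma adjusted p = 0.0271). Housed apart, the differences of Banp and Fry were -0.02 and -0.06, and their interactions with housing did not pass (adjusted p = 0.393 and 0.477).

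Both calls of the 20-library fit were lost when any 1 of several libraries was left out. With 1 of 20 libraries left out in turn, Banp passed in 13 and Fry in 14 fits. Banp was lost without wild-type replicates 1, 2 and 3 and without Xiap-/- replicates 1 to 4 (adjusted p from 0.0532 to 0.115), and Fry without wild-type replicates 3, 4 and 5 and Xiap-/- replicates 1, 4 and 5 (from 0.0514 to 0.112). In the fit of the co-housed libraries both passed with any 1 library left out.

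Next in order of p stood Mtch2 and Tubb2a. Mtch2, a carrier-like protein of the outer mitochondrial membrane that takes part in apoptosis, was at 5.53, 5.42, 5.41, 5.38 and 5.17 in wild-type and at 4.90, 4.97, 4.97, 4.92 and 4.68 in Xiap-/- mice. Its groups did not overlap, and the difference of -0.50 ± 0.10 did not pass (limma adjusted p = 0.0635; 0.0059 in the fit of the co-housed libraries). The tubulin gene Tubb2a was at 3.95, 4.25, 3.99, 3.88 and 4.02 in wild-type and at 4.59, 4.05, 4.59, 4.55 and 4.54 in Xiap-/- mice. Xiap-/- replicate 2 fell among the wild-type mice, and the difference was 0.45 ± 0.09 (adjusted p = 0.0789). Tubb2a passed in the fit of the co-housed libraries. Of 13 tubulin genes tested, 8 were higher and 5 lower, with a median of 0.04.

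The lectins Reg3b and Reg3g were lower in every co-housed Xiap-/- mouse than in any co-housed wild-type mouse. Reg3b (chromosome 6, 78370885 to 78373466) was at 13.54, 13.66, 13.43, 13.91 and 13.73 in wild-type and at 12.52, 13.31, 13.15, 12.86 and 12.70 in Xiap-/- mice. Reg3g (chromosome 6, 78466269 to 78468874) was at 13.08, 13.25, 12.97, 13.23 and 13.09 in wild-type and at 12.12, 12.77, 12.76, 12.26 and 12.19 in Xiap-/- mice. Both genes placed Xiap-/- replicates 2 and 3 nearest to the wild-type mice and replicate 1 lowest. In bulk samples, fewer cells that express a gene and less RNA per cell cannot be told apart.

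Whether these differences passed depended on the mice that set the spread. Reg3b differed by -0.75 ± 0.27 (limma adjusted p = 0.280) and Reg3g by -0.70 ± 0.31 (adjusted p = 0.372) in the model of 20 libraries. In the fit of the co-housed libraries the adjusted p-values were 0.0126 and 0.0059. The SD of Reg3g was 0.116 in co-housed wild-type and 0.319 in co-housed Xiap-/- mice, and 0.815 and 0.285 in wild-type and Xiap-/- mice housed apart. For Reg3b the SDs were 0.182, 0.323, 0.697 and 0.316 in the same order. Housed apart, the differences were -1.17 for Reg3b and -1.33 for Reg3g, and the interactions did not pass (adjusted p = 0.877 and 0.812).

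Of 7 Reg family genes listed, 5 were tested, and the 3 besides Reg3b and Reg3g had differences above 0. Reg3a, another lectin of the same locus, was at 8.34, 7.95, 8.14, 8.28 and 8.41 in wild-type and at 8.27, 7.98, 8.48, 8.40 and 8.80 in Xiap-/- mice. Those groups overlapped, with a difference of 0.16 ± 0.21 (limma adjusted p = 0.799). Reg4, named after its values were seen, differed by 0.22 ± 0.13 (adjusted p = 0.526).

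Gpx2 showed the same arrangement as the lectins. It encodes the glutathione peroxidase of the gut epithelium and was at 10.45, 10.38, 10.46, 10.45 and 10.33 in wild-type and at 9.63, 10.20, 10.08, 9.90 and 9.82 in Xiap-/- mice. The wild-type mice were close together (SD 0.0566), the Xiap-/- mice spread wider (0.223), and the groups did not overlap. The difference was -0.49 ± 0.18 (limma adjusted p = 0.287; 0.0059 in the fit of the co-housed libraries, where it passed with any 1 library left out). That call of Gpx2 was lost with the length score described below (adjusted p = 0.274) and without wild-type replicate 3 and Xiap-/- replicate 5 (adjusted p = 0.0532). Housed apart the difference was -0.87, which passed (adjusted p = 0.0346), and the interaction did not (adjusted p = 0.803).

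**Figure D3:**
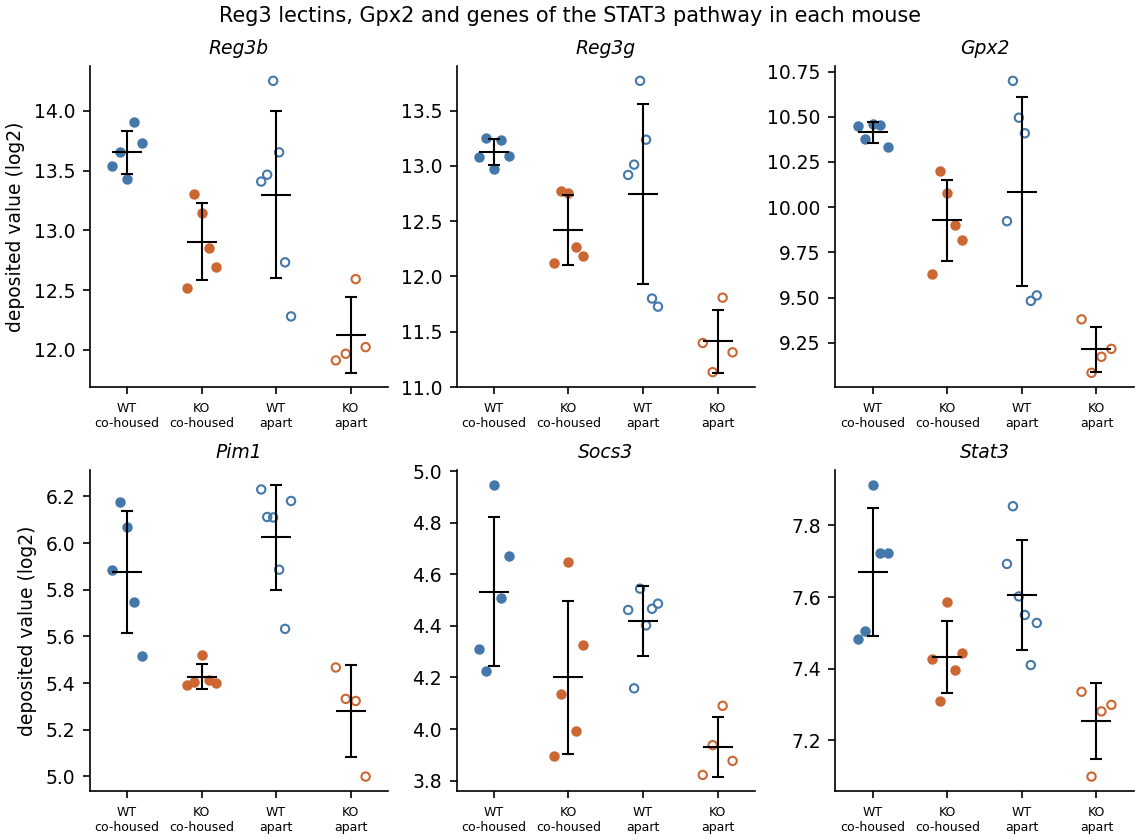
Deposited log2 values (y axis, each panel with its own range) of Reg3b, Reg3g, Gpx2, Pim1, Socs3 and Stat3 in each mouse, by genotype (blue wild-type, WT; orange Xiap-/-, KO) and housing (filled points co-housed, open points apart); black bars are the mean ± SD. The co-housed groups do not overlap for Reg3b, Reg3g and Gpx2, and the wild-type mice housed apart span the widest range for these 3 genes.

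Genes of the STAT3 pathway were counted beside the lectins. Of 13 tested, 0 passed in limma, 3 had an unadjusted p under 0.05, all lower (beside 6.59% of all genes in that direction), and the median was -0.04. The 3 were Pim1, Socs3 and Stat3. Pim1, a kinase induced through STAT3, was at 5.88, 6.18, 6.07, 5.75 and 5.51 in wild-type and at 5.39, 5.40, 5.52, 5.41 and 5.40 in Xiap-/- mice. The groups met at 5.51 and 5.52, and the Xiap-/- values were close together. The difference was -0.45 ± 0.11 (adjusted p = 0.105; 0.018 in the fit of the co-housed libraries). Socs3, the feedback inhibitor of the pathway, differed by -0.33 ± 0.12 (adjusted p = 0.281) and Stat3 itself by -0.24 ± 0.09 (adjusted p = 0.306), both with overlapping groups. In the promoter stretches TTCNNNGAA was present in Socs3, ending 145 bases before the start, and absent from those of Pim1.

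Other genes that answer microbes leaned the same way without passing. Of 11 tested, 10 were lower, with a median of -0.21, and 0 had an unadjusted p under 0.05. Duoxa2, which matures the oxidase that makes hydrogen peroxide at the cell surface, differed by -0.58 ± 0.28 (limma adjusted p = 0.419), and the oxidase gene Duox2 by -0.26 ± 0.26 (adjusted p = 0.712). Saa1, an acute-phase protein named after its values were seen, was at 7.11, 7.79, 6.33, 8.08 and 6.25 in wild-type and at 5.64, 6.29, 7.08, 5.90 and 5.47 in Xiap-/- mice. Both groups spread over more than the difference of -1.03 ± 0.55 (adjusted p = 0.473). Pigr, the receptor that carries antibodies into the lumen, was the 1 member that was not lower (0.03 ± 0.13, adjusted p = 0.954).

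A kinase and a pair of mucins of the gut surface were also lower. Ptk6, a kinase of differentiating gut cells, differed by -0.47 ± 0.12 (limma adjusted p = 0.101; 0.0138 in the fit of the co-housed libraries). The membrane mucin Muc4 differed by -0.51 ± 0.14 (adjusted p = 0.169; 0.0162), and the membrane mucin Muc13 by -0.21 ± 0.10 (adjusted p = 0.427).

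Most genes of the ribosome and of the nuclear-encoded respiratory chain had differences above 0 in co-housed Xiap-/- mice, and 0 passed. With the length score described below in the 20-library model, the ribosomal median fell from 0.16 to 0.07 and the respiratory median turned from 0.11 to -0.04. Of 68 tested cytosolic ribosomal protein genes, 61 were higher and 7 lower, the median was 0.16, and 0 passed in limma. An unadjusted p under 0.05 was reached by 24, all higher, beside 5.43% of all genes, and 7 passed in the fit of the co-housed libraries, all higher, beside 0.693%. In Rps18, Rps14, Rpl13a, Rpl29 and Rps19 the groups did not overlap, all higher, beside 1.33% of all genes. Rps18, of the small subunit, was at 8.23, 7.89, 7.71, 7.98 and 8.18 in wild-type and at 8.39, 8.35, 8.42, 8.47 and 8.56 in Xiap-/- mice. Wild-type replicate 3 was lowest in each of these 5 genes, and Rps18 differed by 0.44 ± 0.12 (adjusted p = 0.137; 0.0126 in the fit of the co-housed libraries). Rpl13a, of the large subunit, differed by 0.39 ± 0.10 (adjusted p = 0.097; 0.0144) and Rps14 by 0.42 ± 0.13 (adjusted p = 0.193; 0.0234). Ribosomal protein genes have many near-identical processed pseudogenes, and of 351 tested pseudogenes 274 were higher, with a median of 0.117.

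Of 76 tested nuclear genes of the respiratory chain, 71 were higher, with a median of 0.11 and 0 passing in limma. At an unadjusted p under 0.05 there were 5 higher and 0 lower, near the 5.43% of all genes that reached it on the higher side. Those without overlap were Usmg5, a small subunit of ATP synthase (0.44 ± 0.16, adjusted p = 0.290; 0.015 in the fit of the co-housed libraries), and Cox7a2l, which joins complexes of the chain (0.22 ± 0.09, adjusted p = 0.301). They were 2.63% of the list, beside 3.09% of all genes without overlap. The 10 tested genes of the mitochondrial genome pointed the other way, with 8 lower and a median of -0.21. The ribosomal RNA mt-Rnr1 was at 15.28, 15.34, 15.71, 15.33 and 15.11 in wild-type and at 15.06, 15.47, 14.94, 14.13 and 14.11 in Xiap-/- mice. The low end was set by Xiap-/- replicates 4 and 5, and the difference was -0.61 ± 0.25 (adjusted p = 0.336).

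The length of genes moved with these differences. Of the tested genes, 95.1% had a length in RefSeq, and when they were divided into 10 bins by length, the median difference went from 0.083 in the shortest bin to -0.073 in the longest. The corresponding medians housed apart were 0.038 and -0.031. The shortest and the longest bin held 906 genes each. Genes without overlap and higher in Xiap-/- mice numbered 19 in the shortest and 5 in the longest, beside 1.33% of all genes. Those lower numbered 10 and 34, beside 1.75% of all genes. A score per library, the median deviation of the shortest 20% of genes minus that of the longest 20%, was -0.03, -0.08, -0.24, -0.07 and -0.02 in the wild-type mice and -0.05, -0.03, 0.07, 0.06 and 0.12 in the Xiap-/- mice. Wild-type replicate 3 and Xiap-/- replicate 5 were the extremes, and they were also farthest apart on the first principal component of the co-housed libraries (-16.4 and 13.6, 32.4% of the variance).

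With the score as a covariate, 2 genes passed in the 20-library fit and 6 in the fit of the co-housed libraries, in place of 3 and 142. Without wild-type replicate 3 and Xiap-/- replicate 5 the counts were 1 and 7. Hspa1b passed in all 4 of these fits, with differences from 1.07 to 1.20 in place of 1.23. As said above, it was tested in them only because of its level in the co-housed Xiap-/- mice. Banp passed with the score (limma adjusted p = 0.0363, and 0.0135 in the 10 libraries), lost its call without the 2 libraries in the 20-library fit (0.0663) and passed there in the 10 libraries (0.00836). Fry lost its call with the score in both fits (adjusted p = 0.163 and 0.094) and without the 2 libraries in the 20-library fit (0.368), and passed without them in the 10 libraries (0.0113). Of the other genes given with an adjusted p from the fit of the co-housed libraries, Mtch2 (0.274 and 0.0753), Reg3b (0.512 and 0.201), Reg3g (0.517 and 0.148), Pim1 (0.524 and 0.152), Dnajb1 (0.489 and 0.152), Rps18 (0.536 and 0.0922) and Rpl13a (0.452 and 0.0753) did not pass in that fit with the score or without the 2 libraries. The median of the ribosomal genes was 0.07 with the score in the 20-library fit and 0.11 without the 2 libraries. For the nuclear respiratory genes these medians were -0.04 and 0.03, and for the xenobiotic genes 0.00 and 0.06. For the heat shock chaperones they were 0.07 and 0.06. The part of gene length in the ribosomal and respiratory differences was not tested beyond these values.

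**Figure D4:**
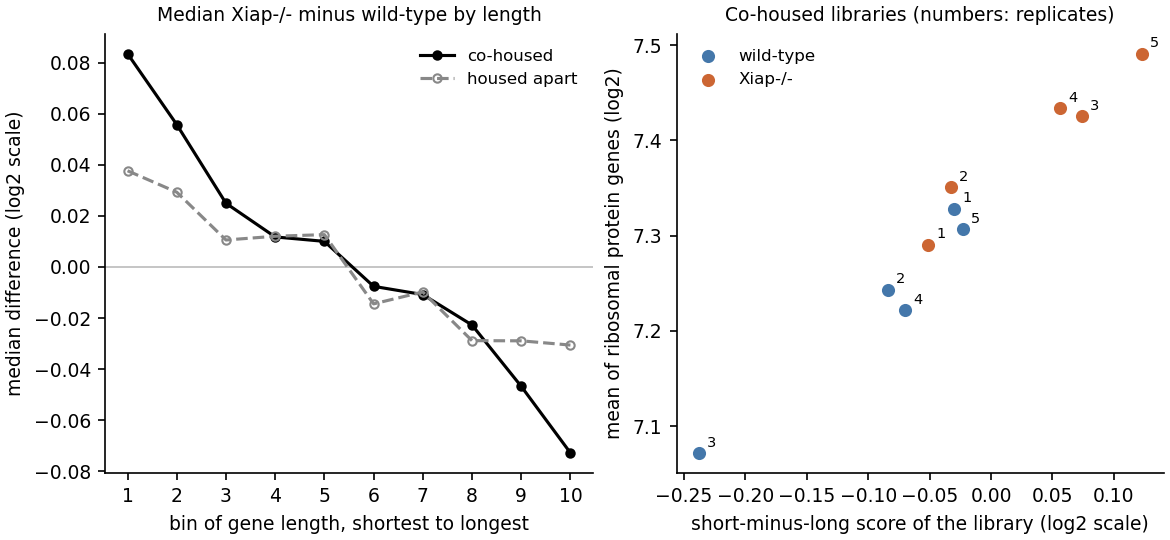
Left, median difference between Xiap-/- and wild-type mice (y axis, log2 scale) in 10 bins of gene length (x axis, shortest to longest), co-housed (filled) and housed apart (open); the co-housed medians go from 0.083 to -0.073. Right, mean of the tested ribosomal protein genes (y axis, log2) against the short-minus-long score (x axis, log2 scale) in the 10 co-housed libraries, numbered by replicate; wild-type replicate 3 is lowest and Xiap-/- replicate 5 highest on both axes.

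Lipid genes included the largest difference among the tested genes after that of Hspa1b. Angptl4, a secreted inhibitor of lipoprotein lipase that PPAR factors induce and gut bacteria lower, was at 6.22, 5.90, 5.53, 5.98 and 5.86 in wild-type and at 7.11, 6.71, 6.74, 6.84 and 7.37 in Xiap-/- mice. No wild-type value reached the lowest Xiap-/- value. The difference was 1.06 ± 0.23 (limma adjusted p = 0.097; 0.00177 in the fit of the co-housed libraries, where it passed with any 1 library left out). In the latter fit Angptl4 also passed with the length score (0.82, adjusted p = 0.0407) and without wild-type replicate 3 and Xiap-/- replicate 5 (0.86, adjusted p = 3.6e-06). Housed apart it was 0.84, and the interaction did not pass (adjusted p = 0.931). Of 28 tested PPAR targets and fatty acid oxidation genes, 22 were higher, with a median of 0.09 and 7 higher and 1 lower at an unadjusted p under 0.05, beside 5.43% and 6.59% of all genes. The lower one was Ppargc1a, a coactivator of mitochondrial genes (-0.38 ± 0.12, adjusted p = 0.207, and 0.0263 in the fit of the co-housed libraries). Pck1, the enzyme that commits to glucose synthesis, differed by 0.47 ± 0.26 (adjusted p = 0.495) and passed in the fit of the co-housed libraries.

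Of 40 tested xenobiotic metabolism genes, 34 were higher, with a median of 0.13, 0 passing in limma and 6 higher and 1 lower at an unadjusted p under 0.05, beside 5.43% and 6.59% of all genes. With the length score the median of the list was 0.00. Ces1e, a carboxylesterase, did not overlap (0.27 ± 0.08, adjusted p = 0.193), and the sulfotransferase gene Sult1d1 differed by 0.46 ± 0.16 (adjusted p = 0.254). Ces1e was 2.5% of the list, beside 3.09% of all genes without overlap. Among 29 tested glutathione and NRF2 genes 24 were higher, and besides Gpx2, described above, the groups did not overlap in Nfe2l2 and Mgst1. With Gpx2 they were 10.3% of the list, beside 3.09% of all genes. Nfe2l2, which encodes NRF2 itself, ran from 8.56 to 8.88 in wild-type and from 8.97 to 9.10 in Xiap-/- mice. Its Xiap-/- values were close together and all higher, with a difference of 0.34 ± 0.09 (adjusted p = 0.113; 0.0163 in the fit of the co-housed libraries). The membrane glutathione transferase gene Mgst1 differed by 0.42 ± 0.14 (adjusted p = 0.218; 0.0205). Of 24 tested cholesterol synthesis genes 17 were lower, with a median of -0.06, and Hsd17b7 was the 1 without overlap (-0.29 ± 0.09, adjusted p = 0.178). That was 4.17% of the list, beside 3.09% of all genes.

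No gene of cell death, which Xiap restrains, passed between the co-housed genotypes. Of 34 tested apoptosis genes, 21 were higher and 13 lower, with a median of 0.03, 0 passing in limma and 0 higher and 1 lower at an unadjusted p under 0.05, beside 5.43% and 6.59% of all genes. Apaf1, the scaffold that activates caspase-9 once cytochrome c is released, was at 6.48, 6.43, 6.38, 6.46 and 6.34 in wild-type and at 6.03, 6.07, 6.09, 6.02 and 6.05 in Xiap-/- mice. Both groups were tight and clearly separate, and the difference of -0.37 ± 0.09 did not pass (adjusted p = 0.097; 0.0144 in the fit of the co-housed libraries, where it passed with any 1 library left out). That call of Apaf1 was lost with the length score (adjusted p = 0.205) and without wild-type replicate 3 and Xiap-/- replicate 5 (adjusted p = 0.0753). Naip1, a related protein that senses bacterial flagellin and secretion systems, also did not overlap (-0.18 ± 0.09, adjusted p = 0.430). Apaf1 and Naip1 were 5.88% of the list, beside 3.09% of all genes without overlap.

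In the list of TNF receptor, necroptosis and pyroptosis genes, 15 of 23 tested members were lower, with a median of -0.02. The 4 with an unadjusted p under 0.05 were all lower, in which direction 6.59% of all genes reached it (5.43% higher). They were Tab3, an adaptor of the kinase TAK1 (-0.30 ± 0.11, limma adjusted p = 0.270), Mlkl, the protein that breaks the membrane in necroptosis (-0.22 ± 0.09, adjusted p = 0.315), Zbp1, a sensor of nucleic acids (-0.35 ± 0.16, adjusted p = 0.395), and Ripk3, the necroptosis kinase, named after its values were seen (-0.24 ± 0.10, adjusted p = 0.316). Their groups overlapped.

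Tnf, Nod2 and Ripk2, the NOD2 adaptor kinase, were below the minimum mean. Tnf was at 0.82 ± 0.05 (SD, n = 5) in wild-type and 0.84 ± 0.09 (SD, n = 5) in Xiap-/- mice (exact permutation p = 0.690, two-sided). Of 19 tested NF-kB subunits and targets, 12 were lower, with a median of -0.06. Those with the smallest p were Nfkbia and Nfkbiz, inhibitor proteins that NF-kB itself induces, with differences of -0.31 ± 0.12 (adjusted p = 0.295) and -0.27 ± 0.10 (adjusted p = 0.271). Il18, the epithelial cytokine that inflammasomes release, differed by -0.28 ± 0.15 (adjusted p = 0.476). The lack of a call does not show equal levels.

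Among ER stress genes, 22 of 29 tested were lower, with a median of -0.06. The groups did not overlap for Atf6, a stress sensor of that membrane (-0.32 ± 0.09, limma adjusted p = 0.171), and for the chaperone gene Hyou1 (-0.22 ± 0.09, adjusted p = 0.330), both lower. They were 6.90% of the list, beside 3.09% of all genes without overlap. Herpud1, which serves degradation of misfolded proteins, was higher (0.33 ± 0.12, adjusted p = 0.244; 0.0471 in the fit of the co-housed libraries).

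Markers of immune cells were slightly higher in co-housed Xiap-/- mice, without passing. All 7 tested MHC class II genes were higher, with a median of 0.32, and 0 of them had an unadjusted p under 0.05. H2-Aa was at 8.36, 8.95, 7.93, 7.63 and 7.45 in wild-type and at 8.88, 8.27, 8.66, 8.91 and 8.49 in Xiap-/- mice. Wild-type replicate 2 lay above the Xiap-/- mice, replicate 1 among them and the other 3 below them. The difference was 0.58 ± 0.33 (limma adjusted p = 0.505). H2-Ab1 differed by 0.37 ± 0.22 (adjusted p = 0.517) and H2-DMa, which loads peptides, by 0.32 ± 0.16 (adjusted p = 0.415). Housed apart the median of the list was -0.33, and the interactions of H2-Aa, H2-Ab1 and H2-DMa did not pass (adjusted p = 0.697, 0.690 and 0.614).

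Of 20 tested T cell and NK cell markers, 18 were higher, with a median of 0.15. The mean of the whole list ran from 3.34 to 3.62 in wild-type and from 3.44 to 3.83 in Xiap-/- mice. Cd3e, a chain of the T cell receptor complex, differed by 0.28 ± 0.12 (limma adjusted p = 0.339), and Gzma, a granzyme of killer lymphocytes, by 0.41 ± 0.25 (adjusted p = 0.535). Epithelial cells of the small intestine also make MHC class II, so its genes do not stand for 1 cell type. Of the B and plasma cell list 5 of 14 measured genes were tested (median 0.06) and of the myeloid and mast cell list 6 of 17 (median 0.12). The part of these cells in the differences described here was not tested.

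No marker of an epithelial lineage passed between the co-housed genotypes. Of 14 tested alpha-defensins, the antimicrobial peptides of Paneth cells, 12 were higher, with a median of 0.08 and differences from -0.05 to 0.30. They are a family of near-identical genes whose reads may be divided among members. Defa24 was at 14.39, 14.13, 14.13, 14.12 and 13.78 in wild-type and at 14.18, 14.52, 14.20, 13.80 and 14.27 in Xiap-/- mice. The groups overlapped fully, with a difference of 0.08 ± 0.13 (limma adjusted p = 0.831). Among other Paneth cell products, the differences were 0.10 ± 0.12 for the lysozyme Lyz1, 0.19 ± 0.14 for the ribonuclease Ang4 and -0.09 ± 0.18 for Mmp7, which processes defensins (adjusted p = 0.771, 0.618 and 0.868). The phospholipase Pla2g2a had an unadjusted p under 0.05 and was lower (-0.30 ± 0.12, adjusted p = 0.306).

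Of 16 tested enteroendocrine genes, 13 were higher, with a median of 0.14. Gcg, which encodes the precursor of GLP-1, did not overlap between the groups (0.31 ± 0.11, limma adjusted p = 0.256), and the hormone gene Pyy differed by 0.29 ± 0.12 (adjusted p = 0.343). Gcg was 6.25% of the list, beside 3.09% of all genes without overlap. Rgs13, a tuft cell regulator of G proteins, differed by 0.41 ± 0.11 (adjusted p = 0.137; 0.0311 in the fit of the co-housed libraries). Of 18 tested goblet cell products 13 were higher (median 0.09), among them Guca2a, the precursor of guanylin (0.32 ± 0.16, adjusted p = 0.426). Of 17 tested stem cell genes 12 were higher and 5 lower (median 0.06), yet both with an unadjusted p under 0.05 were lower, beside 6.59% of all genes in that direction. They were Rnf43, which removes Wnt receptors (-0.26 ± 0.08, adjusted p = 0.193), and Ephb2, which sorts crypt cells by position (-0.27 ± 0.11, adjusted p = 0.323). Of 42 tested genes of DNA replication and mitosis, 20 were higher and 22 lower (median -0.003). The DNA polymerase gene Pola1 was the 1 whose groups did not overlap (-0.44 ± 0.11, adjusted p = 0.115; 0.0138). That was 2.38% of the list, beside 3.09% of all genes.

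**Figure D5:**
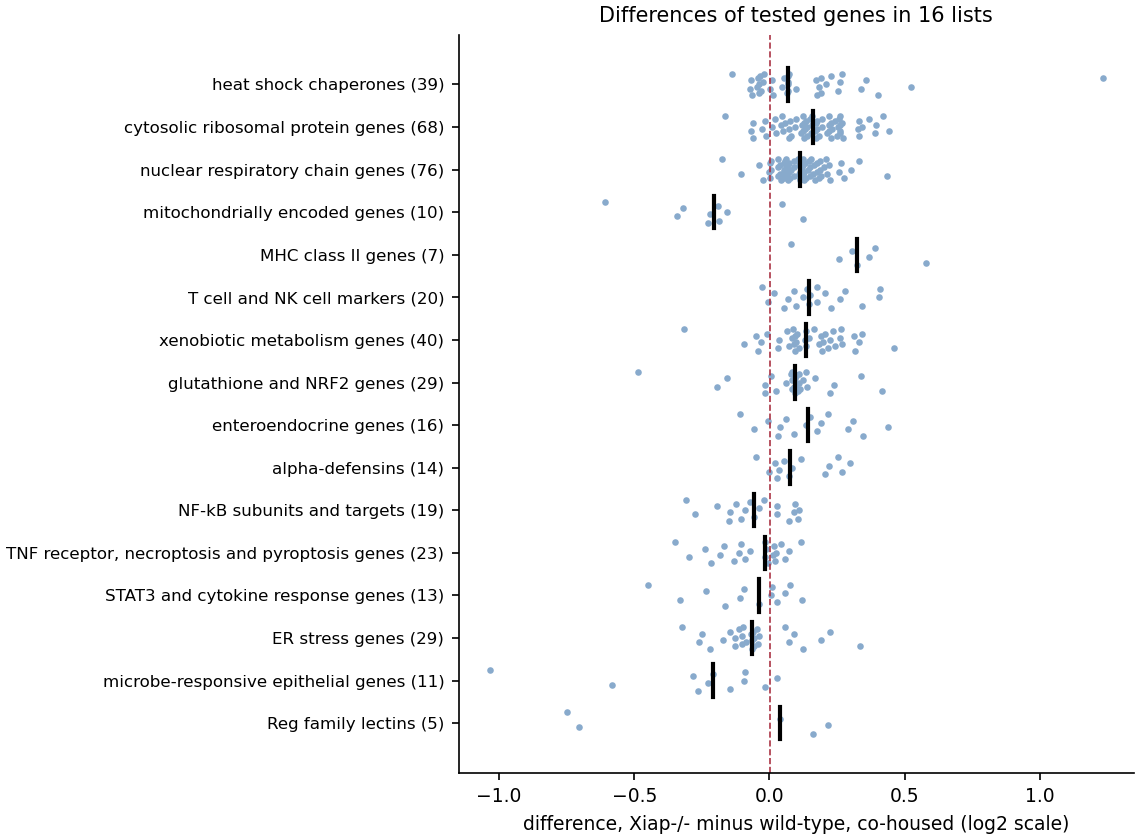
Differences between co-housed Xiap-/- and wild-type mice (x axis, log2 scale) of the tested genes of 16 lists (rows, number tested in parentheses); each point is 1 gene, the black bar is the median of the list, the dashed line the median of all tested genes (0.004), and the height of a point within its row carries no meaning. Most ribosomal and respiratory genes lie right of the line and all 7 MHC class II genes do, while 10 of 11 microbe-responsive genes lie left of it.

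Genes outside the lists filled the remaining places among the smallest p-values. Higher in Xiap-/- mice were Slc25a38, a mitochondrial glycine carrier (0.36 ± 0.08), Pccb, an enzyme of propionate breakdown (0.39 ± 0.09), Tsc22d3, a glucocorticoid-induced regulator (0.37 ± 0.09), Mmd, a receptor-like membrane protein (0.34 ± 0.08), and Glrx2, a mitochondrial glutaredoxin (0.34 ± 0.08). Their limma adjusted p-values ran from 0.097 to 0.105. All 5 passed in the fit of the co-housed libraries, and Pccb was the 1 with overlap, through wild-type replicate 1 at 8.71 and Xiap-/- replicate 1 at 8.70. With 1 of the 10 libraries left out in turn, Mmd passed in 2 fits, Glrx2 in 5, Slc25a38 in 6, Pccb in 9 and Tsc22d3 in 10. All 5 lost that call with the length score, and also without wild-type replicate 3 and Xiap-/- replicate 5.

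Lower in Xiap-/- mice were Exph5, a Rab27 effector (-0.61 ± 0.14), Exoc6b, an exocyst subunit (-0.44 ± 0.10), Bcl2l15, a BCL2-like gene of the gut (-0.44 ± 0.10), and Unc5cl, a death-domain protein of epithelial cells that signals to NF-kB (-0.48 ± 0.11). Their limma adjusted p was 0.097. Setd5, a chromatin regulator, differed by -0.50 ± 0.13 (limma adjusted p = 0.107; 0.0341 in the fit of the co-housed libraries).

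Of the 142 genes of the fit of the co-housed libraries, 21 passed with any 1 of the 10 libraries left out. Of those 21, 4 passed in that fit with the length score as a covariate and 6 without wild-type replicate 3 and Xiap-/- replicate 5, the rest losing the call. Besides genes described above they included Ndrg1, Id2, Hpgd and Tcf7l2, named after their values were seen. Ndrg1, a stress- and hypoxia-induced gene, was at 7.58, 7.47, 7.39, 7.44 and 7.52 in wild-type and at 8.15, 7.83, 7.78, 7.76 and 7.86 in Xiap-/- mice. Every Xiap-/- value was above every wild-type value (difference 0.40 ± 0.10, limma adjusted p = 0.134). The transcriptional inhibitor Id2 and the prostaglandin-degrading enzyme Hpgd were higher (0.39 ± 0.11 and 0.40 ± 0.15, adjusted p = 0.163 and 0.304). Tcf7l2, the main effector of Wnt signals in crypts, was lower (-0.44 ± 0.13, adjusted p = 0.193). These 4 genes did not pass in the fit of the co-housed libraries with the score (adjusted p = 0.101, 0.315, 0.298 and 0.489 for Ndrg1, Id2, Hpgd and Tcf7l2) or without those 2 libraries (0.0753, 0.0862, 0.0922 and 0.0995). Stress genes with overlapping groups were the metallothionein Mt2 (0.68 ± 0.16, adjusted p = 0.105) and Ier5, an immediate early gene (0.39 ± 0.10, adjusted p = 0.137). In the fit of the co-housed libraries Ier5 passed (adjusted p = 0.0342) and Mt2 did not (0.0623).

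For 3 genes that passed housed apart, the co-housed difference was smaller, and the change between the housings did not pass. The water channel Aqp8 differed by 0.40 ± 0.12 co-housed (limma adjusted p = 0.193) and by 1.00 housed apart, which passed (adjusted p = 8.01e-05). The carboxylesterase Ces1d differed by 0.22 ± 0.09 (adjusted p = 0.340) and by 0.70 (adjusted p = 8.01e-05). Sco2, which serves assembly of cytochrome c oxidase, differed by 0.00 ± 0.19 (adjusted p = 0.998) and by 1.12 (adjusted p = 0.0164). The interactions had adjusted p-values of 0.477, 0.441 and 0.393. These 3 genes are given because they passed housed apart, and the comparison of their sizes across housings is a description.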

How the data were processed

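Bulk 3′ sequencing of poly(A) RNA with unique molecular identifiers was done on crypt RNA, per the labels' protocols. The authors deposited 1 table of normalized values on a log2 scale for 23020 genes and 20 libraries. The submitters' processing notes name DESeq2 1.18.1 and build GRCm38.p6; the transformation and the counting are not given in the sources used here, and small differences of lowly expressed genes may be shrunken by it, which was not tested. The table gives no reads, so no counting intervals are given.

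The deposited log2 values were used unaltered (no pseudocount; limma 3.58.1, R 4.3.3). Genes with a mean of at least log2 of 10 were fitted in 1 model of 4 group means (16 residual degrees of freedom, variance trend, robust moderation). The p-values are two-sided and Benjamini-Hochberg adjusted over 9521 genes, with a threshold of 0.05. Differences carry standard errors of that model. Single values were compared by exact permutation over the 10 co-housed libraries. Lists are described by counts and medians, with no set test. Positions, gene lengths and promoters are from RefSeq on GRCm38.p6. The scripts were tested on simulated data.

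The genes of interest and the 45 gene lists were chosen with earlier results of these data known. Named genes are those that passed, the 12 smallest p-values in each direction, the 12 largest in each direction in the fit of 10 libraries, up to 3 per list, and genes named in earlier results; some go unnamed, as do predicted genes and 24 date-like names, and others are marked in the text. Alternatives covered the libraries fitted, array weights, a replicate block, moderation, filters, scaling, the depth proxy, gene length and left-out libraries. Some results are not reported here.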

Additional observations from a re-analysis of the deposited data

Results flagged for a closer look

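In a group of 5 mice, a value was marked where its gap to the nearest other value was more than 0.71 of the whole range of the group, a rule by which chance marks about 1 in 20 groups; 204 such groups were looked at. In wild-type mice, replicate 3 was marked high for Fry (gap 0.860 of the range) and low for Mgst1 (0.813), Cox7a2l (0.711) and the short-minus-long score (0.715), replicate 2 low for Slc25a38 (0.787), and replicate 5 low for Lyz1 (0.801). In Xiap-/- mice, replicate 2 was marked low for Tubb2a (0.910), replicate 3 high for Pim1 (0.846), replicate 5 low for Pigr (0.776) and Mtch2 (0.768), and replicate 1 high for Ndrg1 (0.754). Replicate 4 was marked low for the Paneth cell products Lyz1 (0.728) and Ang4 (0.717). The genotype difference of Hspa1b departed between the housings by 1.10 in the interaction of the limma fit.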

How the results depend on the processing

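The 3 calls between the co-housed genotypes became 142 in the fit of the 10 co-housed libraries, 159 with array quality weights by library, 79 with weights by group, 10 with no filter on low values, 5 with a minimum mean of log2 of 5 and 0 with log2 of 20, which no longer tested Hspa1b and Fry and where Banp lost its call (adjusted p = 0.0885). Added after seeing the data were the length score as a covariate (2 genes, and 6 in the 10 libraries) and leaving out the 2 libraries farthest apart on the first component (1, and 7 in the 10 libraries). With 1 library left out in turn, the count ran from 1 (without wild-type replicate 3 or Xiap-/- replicates 1 or 4) to 12 (without wild-type replicate 4 housed apart). In the 10 libraries it was 306, 108, 37, 53 and 92 without wild-type replicates 1 to 5 and 99, 381, 109, 30 and 45 without Xiap-/- replicates 1 to 5. The 1 interaction became 4 with library weights, 0 with a minimum of log2 of 20, 3 with the length score and 2 without the 2 libraries. Genes whose groups did not overlap numbered 255 to 403 under other filters and scalings, and 339 to 662 with 1 library left out, where smaller groups overlap less. Median centring, quantile normalization and the depth proxy left the count at 3.

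The replicate numbers did not pair the mice (correlations of same-numbered deviations from -0.13 to 0.13). With a replicate block, 1 gene passed in the 20-library fit and 149 in the 10 libraries. The differences of Hspa1b, Banp and Fry kept their sign under every alternative that tested them. Depth is unknown, so what it limits cannot be given.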
